A study of Mus musculus with 10 samples.

Results

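The 40 genes described here repair alkylated, mismatched, oxidised or broken DNA, or signal such damage, and were followed by RNA sequencing in mouse colorectal tumours and adjacent colon. They were chosen by gene symbol, as members of a list of repair genes sorted by repair route, and all 40 are among the 24525 genes of the expression table. Male C57BL/6 mice (C57BL/6N in the protocol, from 1 brood, 7 weeks old, 18 to 20 g) received 1 intraperitoneal injection of azoxymethane (AOM) at 12.5 mg/kg. Starting 1 week later, they went through 3 cycles of 5 days on 2% dextran sulfate sodium (DSS) in the water and 16 days without it, and tissue was taken 10 weeks after AOM. The 5 tumours and the 5 samples of adjacent tissue all carry this treatment, and no library of the 3 untreated mice among the 15 was analysed here. Each of the 10 libraries carries the name of a single mouse in its source label although the design text speaks of matched tissues from mice, so it is not settled which of them come from 1 animal. All p-values below thus cover the spread between samples only, part of which may be technical.

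AOM is metabolised to a methylating agent. Methyl groups on the oxygen of guanine are taken off directly by the protein of Mgmt, which is used up in the reaction, and methylated adenine and cytosine can be restored by the ALKBH dioxygenases. Other altered bases are cut out by glycosylases, after which base excision repair rebuilds the strand. Mismatch repair recognises mispairs left by replication, including those opposite methylated guanine, and homologous recombination mends double-strand breaks and collapsed replication forks.

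Most of the repair genes were higher in tumours, with the largest single log2 changes in Apex1 and Parp1. The recombination genes had the highest route median, while Mgmt, Alkbh3 and Xrcc3 did not pass the test on the scale as deposited. Of the 40 genes, 39 had a mean of at least 1 FPKM (fragments scaled to transcript length and to the mapped total of the library) and were tested with limma on log2(FPKM + 1), adjusted over 13016 genes. Of these, 36 (92.3%) were higher in tumours at an adjusted p below 0.05, against 57.2% of all genes tested. None was lower by limma, none at an unadjusted p under 0.05 and none in the fit without a trend, against 19.3% of all genes called lower. Of the tested genes, 32 had every tumour above every adjacent sample, as did 46.5% of all tested genes. By the ratio of mean FPKM 17 differed at least 2-fold, a count for which no share of all genes was computed. By that ratio Apex1 and Parp1 (both 2.78) lay below Fancd2 (3.33), Rad54l (3.22) and Brca1 (3.18). Those genes have low levels, where the log2(FPKM + 1) scale understates the change. The median log2 change was 0.72 over the repair genes and 0.35 over all genes tested.

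That shift of all genes matters for how each value reads. With each library's median subtracted, the median change was 0.39 over the repair genes and 0.02 over all genes. On that scale limma called 30 repair genes higher, against 34.5% of all genes, and Mgmt and Xrcc3 lower, against 33.3% of all genes. The 6 genes no longer called higher were Alkbh2, Mpg, Neil1, Ung, Msh3 and Atm. After quantile normalization 23 were higher (36.6% of all genes) and 3 lower, namely Mgmt, Alkbh3 and Xrcc3 (30.2% of all genes). The calls lost there were those 6 and Neil3, Mutyh, Mlh3, Pms2, Brca2, Palb2 and Xrcc2. Changes below are on the scale as deposited unless the subtracted medians are named. Route counts below stand beside the same shares of all genes called higher. These were 57.2% as deposited, 34.5% with medians subtracted and 36.6% after quantile normalization.

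**Figure D1:**
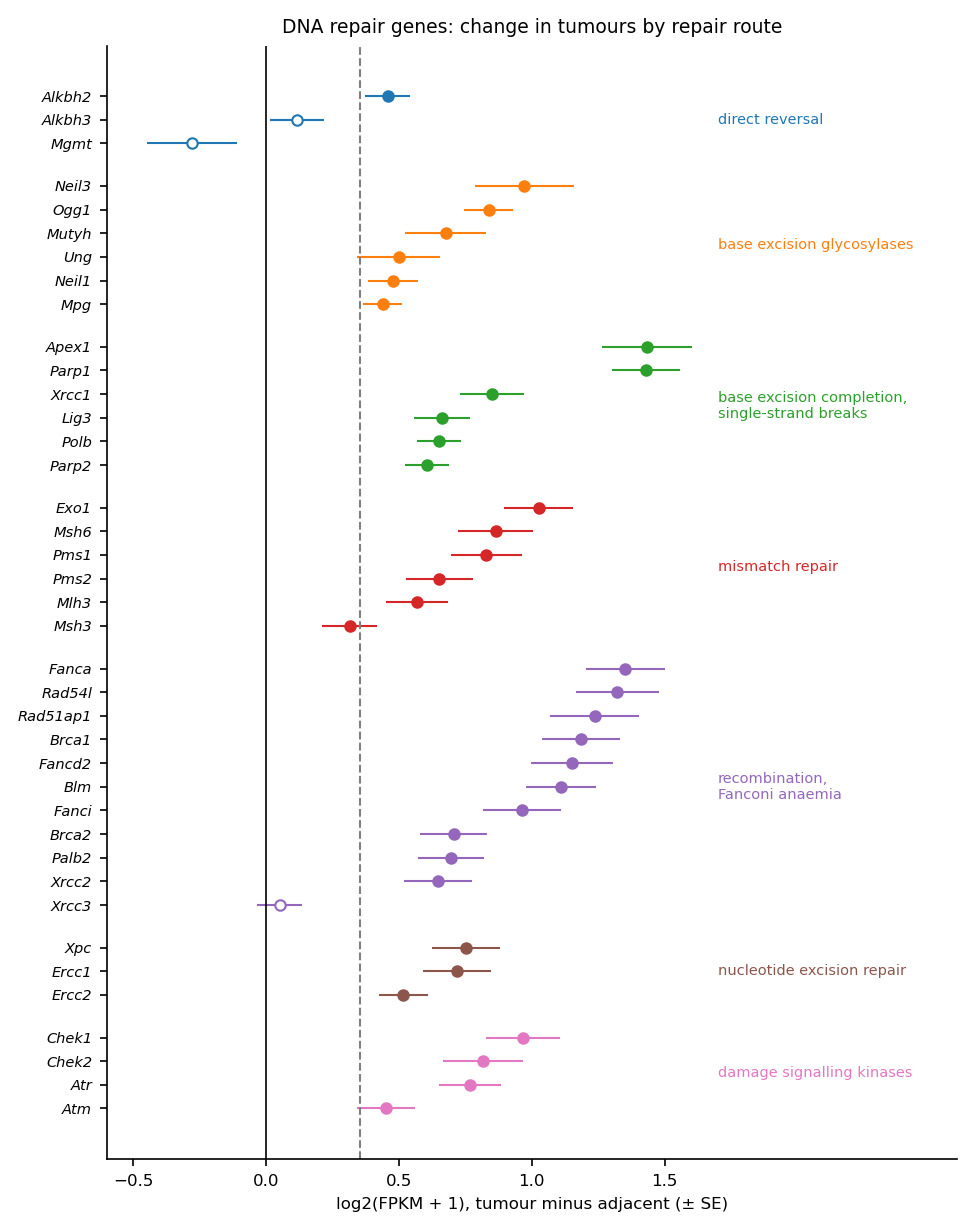
Change of the 39 tested repair genes, tumour minus adjacent on the log2(FPKM + 1) scale (x axis, points with SE bars, n = 5 per group), by repair route in colours. Filled points passed limma's threshold and open points did not; the solid line is 0 and the dashed line is the median of all genes, 0.35. Alkbh3, Mgmt, Xrcc3 and Msh3 lie left of the dashed line, with all other points to its right.

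The libraries held 462009 to 484712 FPKM in total and 11981 to 13171 genes at 1 FPKM or more. Because FPKM is scaled to the mapped total, these sums do not give the size of a library. Depth is not stated. From the steps between low values it was roughly 21000000 to 26000000 fragments per library, or 24600000 to 30300000 when 100 bases were subtracted from each length. Tumour 2 stood nearest to adjacent tissue on the first principal component (28.1, other tumours 42.6 to 68.3) and was the lowest tumour for 35 of the 40 genes. Of the tumours it had the highest summed absorptive colonocyte (1418 FPKM), general epithelial (5977), fibroblast (989), endothelial (82.6), macrophage (998), T cell (40.5) and B cell (463) markers, and the lowest summed proliferation markers (565). Their part in its low values was not tested.

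Direct reversal was the route with the least change. Mgmt, the methylguanine methyltransferase, measured 2.18, 1.95, 2.15, 1.75 and 1.72 FPKM in adjacent samples 1 to 5. It measured 1.01, 1.19, 0.85, 2.14 and 2.27 FPKM in tumours 1 to 5. Tumours 1, 2 and 3 lay below every adjacent sample, tumour 4 lay within the adjacent range and tumour 5 above it. The means were 1.95 ± 0.216 and 1.49 ± 0.663 FPKM (SD, n = 5), a log2 change of -0.28 (SE 0.17) that did not pass (limma adjusted p = 0.151). Without tumour 5 it did (limma adjusted p = 0.0469). With medians subtracted Mgmt fell, by 0.61 (limma adjusted p = 0.00768).

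RefSeq gives Mgmt a pair of starts. The 250 bases before the first are shown because loss of this gene's expression in human tumours is known to go with methylation of CG dinucleotides at its promoter; methylation was not measured here. They lie at chr7:136894336-136894585 on the plus strand (RefSeq, GRCm38.p6) and hold 15 CG dinucleotides at a GC content of 67.2%. RefSeq's position for the whole gene begins at 136894463, inside this window, so the start used is that of the sequence entry. Capitals mark the 4 matches to the GC box GGGCGG, searched on both strands, which 62.9% of the 10044 tested genes with a sequence also had at least once, as did 22 of the 34 repair genes with one. The window before the other start (chr7:136912848-136913097) holds 2 CG dinucleotides and no GC box, at a GC content of 51.6%.
Mgmt: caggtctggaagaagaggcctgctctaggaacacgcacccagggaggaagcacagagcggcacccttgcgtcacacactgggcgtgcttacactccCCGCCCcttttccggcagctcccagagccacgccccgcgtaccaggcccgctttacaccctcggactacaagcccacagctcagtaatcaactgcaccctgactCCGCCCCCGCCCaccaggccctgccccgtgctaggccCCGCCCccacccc

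Of the ALKBH genes, Alkbh2 passed the test as deposited and Alkbh3 did not. Alkbh2, which acts on double-stranded DNA, measured 2.95, 3.68, 3.65, 3.52 and 3.75 FPKM in adjacent samples and 5.94, 5.06, 5.12, 4.81 and 5.02 FPKM in tumours. All tumours were higher, and it rose by 0.46 (SE 0.09; limma adjusted p = 0.00061). This call was lost with medians subtracted (0.13, limma adjusted p = 0.241). Alkbh3, which prefers single strands, measured 8.81, 8.31, 9.94, 7.59 and 6.86 FPKM in adjacent samples and 8.74, 9.95, 10.07, 8.47 and 8.04 FPKM in tumours, ranges that overlap. Its log2 change was 0.12 (SE 0.10; limma adjusted p = 0.308) and -0.21 with medians subtracted (limma adjusted p = 0.0851). It was called lower after quantile normalization (-0.26, limma adjusted p = 0.0439). Alkbh2 shares 29.5% of its annotated exon bases with Usp30 on the opposite strand, and Alkbh3 shares 18.2% with other annotated genes. Usp30 was at 5.19 to 6.56 FPKM in adjacent samples and 7.62 to 10.21 in tumours. It rose by 0.46 (limma adjusted p = 0.00138), and by an uncalled 0.12 with medians subtracted. The library kit does not mark strand and no source used here describes the counting, so reads from such genes cannot be told apart.

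**Figure D2:**
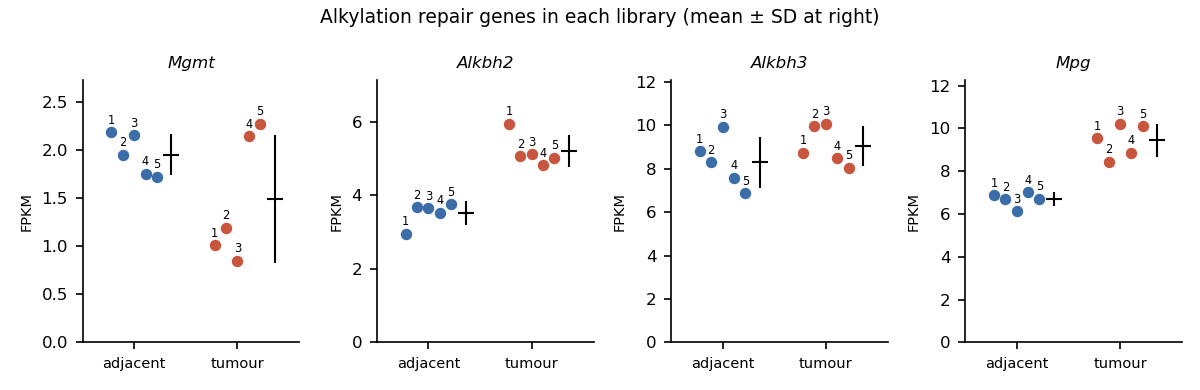
FPKM (y axis) of Mgmt, Alkbh2, Alkbh3 and Mpg in each library, numbered by sample, with mean and SD at the right of each group (n = 5). Tumours 1, 2 and 3 have Mgmt levels below all adjacent samples (1.72 to 2.18), while tumours 4 and 5 are at 2.14 and 2.27; Alkbh2 and Mpg separate the groups and Alkbh3 does not.

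All 6 tested glycosylases rose, against 57.2% of all genes, and 3 of the 6 still did with medians subtracted (34.5% of all genes). After quantile normalization only Ogg1 was called higher, against 36.6% of all genes. The median of their log2 changes was 0.59. Mpg, which excises methylated purines, measured 6.89, 6.69, 6.14, 7.02 and 6.72 FPKM in adjacent samples and 9.55, 8.44, 10.22, 8.87 and 10.11 FPKM in tumours, with no overlap. It rose by 0.44 (SE 0.07; limma adjusted p = 0.000272), and by an uncalled 0.11 with medians subtracted. Mpg shares 42.5% of its exon bases with Nprl3 on the opposite strand, which itself rose by 0.78 (limma adjusted p = 7.25e-05). Ogg1, which removes oxidised guanine, measured 5.01, 4.07, 4.93, 4.33 and 4.84 FPKM in adjacent samples and 10.05, 7.75, 8.66, 8.69 and 10.31 FPKM in tumours, with no overlap. It rose by 0.84 (SE 0.09; limma adjusted p = 3.03e-05).

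Neil3, a glycosylase of oxidised bases that is known to be expressed in dividing cells, had the largest log2 change of the tested glycosylases. It measured 2.39, 2.2, 2.17, 2.65 and 2.49 FPKM in adjacent samples and 6.89, 3.11, 8.21, 4.98 and 6.13 FPKM in tumours, a rise of 0.97 (SE 0.19; limma adjusted p = 0.000764). After quantile normalization it missed the threshold (0.47, limma adjusted p = 0.0578). Tumour 2 was nearest to the adjacent samples but still above them. Neil1, another glycosylase of oxidised bases, measured 5.78, 5.21, 5.51, 5.33 and 5.15 FPKM in adjacent samples and 9.59, 6.65, 8.13, 8.36 and 7.04 FPKM in tumours. Neil1 rose by 0.48, Mutyh, which removes adenine opposite oxidised guanine, by 0.68, and Ung, the uracil glycosylase, by 0.50. The groups overlapped for Mutyh (0.69 to 1.17 and 1.12 to 2.67 FPKM) and for Ung (4.82 to 8.02 and 7.28 to 11.76 FPKM). Neil2 was below the filter, at 0.04 to 0.26 FPKM in adjacent samples and 0.35 to 0.78 in tumours.

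The enzymes that complete base excision repair had the highest summed level of the routes. Among them Apex1 and Parp1 had the largest log2 changes of the tested repair genes. The median change of the route was 0.76, below those of the kinases (0.79) and of recombination (1.11). All 6 genes of the route rose as deposited, with medians subtracted and after quantile normalization. Apex1, the endonuclease that cuts at the abasic site, measured 27.44, 18.09, 26.97, 18.62 and 25.20 FPKM in adjacent samples and 62.89, 45.08, 71.66, 62.38 and 81.84 FPKM in tumours. The lowest tumour lay far above the highest adjacent sample, and Apex1 rose by 1.43 (SE 0.17; limma adjusted p = 4.21e-05). Of its exon bases 70.8% are shared with Pip4p1 on the opposite strand, listed as Tmem55b, which was at 21.59 to 26.17 FPKM in adjacent samples and 23.39 to 26.19 in tumours.

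Parp1, which senses strand breaks and marks them with poly(ADP-ribose), measured 16.35, 11.05, 17.51, 11.90 and 15.79 FPKM in adjacent samples and 45.72, 35.99, 37.88, 39.28 and 43.12 FPKM in tumours. It rose by 1.43 (SE 0.13; limma adjusted p = 1.73e-05). Its paralogue Parp2 measured 13.32, 12.95, 13.38, 13.11 and 11.58 FPKM in adjacent samples and 21.05, 16.38, 21.31, 20.59 and 21.59 FPKM in tumours, a rise of 0.61 (SE 0.08; limma adjusted p = 8.8e-05). The groups did not overlap for either gene. Xrcc1, the scaffold of single-strand break repair, rose by 0.85, its partner ligase Lig3 by 0.66 and the gap-filling polymerase Polb by 0.65. Lig3 shares 27.9% of its exon bases with Rffl.

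All 6 mismatch repair genes rose, 5 of them also with medians subtracted and 3 (Exo1, Msh6 and Pms1) after quantile normalization, with a median log2 change of 0.74. Exo1, the exonuclease that removes the strand with the error, measured 1.21, 0.80, 1.03, 0.81 and 1.15 FPKM in adjacent samples and 2.83, 2.34, 3.63, 2.72 and 4.01 FPKM in tumours. It rose by 1.03 (SE 0.13; limma adjusted p = 5.73e-05). Msh6 and Msh3 encode alternative partners in the complexes that bind mispairs, the first mainly for base mispairs and short loops, the second for longer loops. Msh6 measured 8.57, 5.98, 8.82, 7.26 and 9.71 FPKM in adjacent samples and 15.61, 12.37, 17.61, 13.35 and 18.53 FPKM in tumours, rising by 0.86 (SE 0.14; limma adjusted p = 0.000244).

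Msh3 changed least of the mismatch repair genes. It measured 5.44, 4.52, 5.40, 4.78 and 4.48 FPKM in adjacent samples and 6.79, 4.93, 7.24, 6.70 and 6.31 FPKM in tumours. Only tumour 2 lay within the adjacent range. The rise of 0.31 (SE 0.10; limma adjusted p = 0.016) was -0.016 with medians subtracted. Among the MutL homologues, Pms1 rose by 0.83, Pms2, which nicks the strand, by 0.65 and Mlh3 by 0.57. The Mlh3 log2 change also missed the threshold with the replicate block and medians subtracted (limma adjusted p = 0.0544).

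Recombination and Fanconi anaemia genes had the highest route median, and 10 of 11 rose as deposited and with medians subtracted, 7 of 11 after quantile normalization, with a median log2 change of 1.11. Fanca, a core subunit of the complex that responds to DNA crosslinks, measured 3.18, 2.70, 2.68, 2.24 and 3.02 FPKM in adjacent samples and 8.88, 5.51, 10.51, 9.08 and 9.75 FPKM in tumours. It rose by 1.35 (SE 0.15; limma adjusted p = 3.12e-05), from a mean of 2.76 ± 0.362 to 8.75 ± 1.92 FPKM (SD, n = 5). Rad54l, a motor protein that promotes strand exchange, rose by 1.32, Rad51ap1, which stimulates strand pairing, by 1.24 and the helicase gene Blm by 1.11. In each of these every tumour lay above every adjacent sample.

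Brca1, which promotes resection of broken ends, rose by 1.18, from 1.51 ± 0.196 to 4.80 ± 1.25 FPKM (SD, n = 5). The clamp genes Fancd2 and Fanci rose by 1.15 and 0.96. Fanci shares 13.4% of its exon bases with Polg on the opposite strand. Polg was at 14.83 to 16.79 FPKM in adjacent samples and 17.47 to 19.87 in tumours, far above Fanci. Brca2, the loader of the strand-exchange filament, rose by 0.71 and Palb2, which bridges BRCA1 and BRCA2, by 0.69. Their levels were low, at 0.49 to 0.78 FPKM for Brca2 and 1.07 to 1.73 for Palb2 in adjacent samples, where the log2(FPKM + 1) scale understates the change. After quantile normalization neither was called (limma adjusted p = 0.0559 and 0.115). The ratio of mean FPKM was 2.68 for Brca2 and 2.1 for Palb2.

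Xrcc2 and Xrcc3 encode members of the same family of recombination mediators, of which Xrcc2 rose by 0.65, a call lost after quantile normalization (limma adjusted p = 0.157). Xrcc3 measured 7.43, 6.41, 6.79, 6.85 and 6.97 FPKM in adjacent samples and 7.92, 5.83, 7.48, 7.62 and 7.17 FPKM in tumours. Tumour 2 was the lowest of all libraries and the groups overlapped. The change of 0.05 (SE 0.08) did not pass (limma adjusted p = 0.59), and with medians subtracted Xrcc3 fell, by 0.28 (limma adjusted p = 0.00491). The difference between the changes of Xrcc2 and Xrcc3 was not tested.

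**Figure D3:**
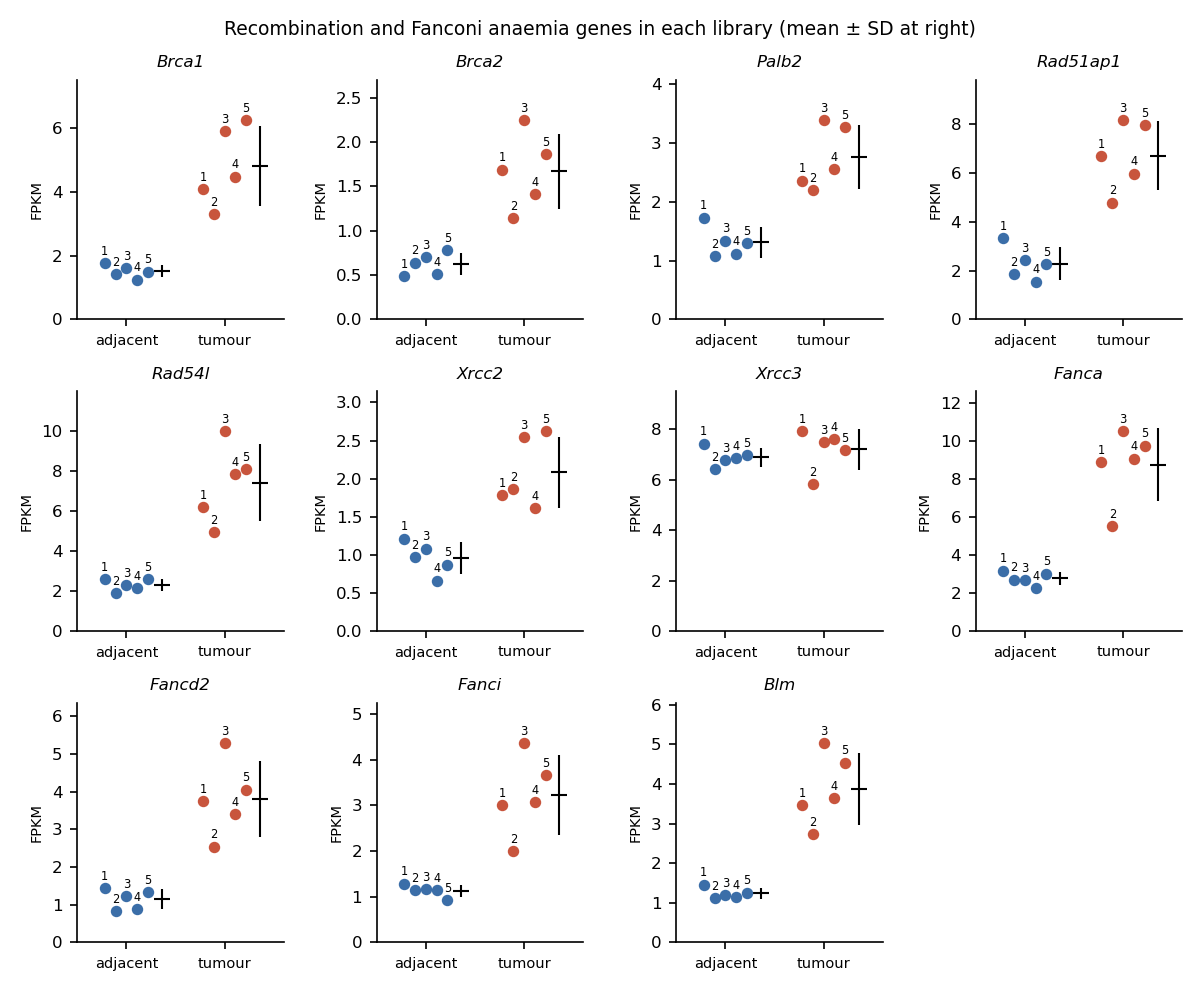
FPKM (y axis) of the 11 recombination and Fanconi anaemia genes in each library, numbered by sample, with mean and SD at the right of each group (n = 5). The groups separate in 10 panels and overlap for Xrcc3 (6.41 to 7.43 in adjacent samples, 5.83 to 7.92 in tumours).

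The nucleotide excision genes moved together within a narrow range. Xpc, which finds distorted DNA, measured 6.54, 4.79, 6.29, 5.54 and 7.34 FPKM in adjacent samples and 11.76, 8.77, 12.51, 9.35 and 12.47 FPKM in tumours, and rose by 0.75 (SE 0.13; limma adjusted p = 0.00033). Ercc1, part of an incision nuclease, rose by 0.72. Ercc2, a helicase of the transcription factor TFIIH, measured 10.55, 8.32, 10.76, 9.59 and 10.73 FPKM in adjacent samples and 15.94, 12.36, 14.98, 14.5 and 15.78 FPKM in tumours, and rose by 0.52. All 3 kept every tumour above every adjacent sample and passed with medians subtracted. Ercc2 shares 34.8% of its exon bases with 3 other annotated genes together, among them Klc3, which rose by 1.67.

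All 4 kinase genes rose. Chek1, the effector of the replication stress response, measured 1.79, 1.22, 1.67, 1.16 and 1.35 FPKM in adjacent samples and 3.74, 2.84, 3.27, 3.92 and 5.28 FPKM in tumours, a rise of 0.97 (SE 0.14; limma adjusted p = 0.00012). Chek2 rose by 0.82. Atr, the sensor kinase upstream of Chek1, measured 3.45, 2.62, 3.53, 2.5 and 3.2 FPKM in adjacent samples and 6.02, 4.96, 7.27, 5.3 and 6.01 FPKM in tumours, and rose by 0.77. Atm, the sensor kinase of double-strand breaks, measured 4.28, 3.87, 4.87, 3.74 and 4.49 FPKM in adjacent samples and 6.13, 4.82, 7.21, 5.93 and 6.96 FPKM in tumours. Tumour 2 lay just below the highest adjacent sample. Its rise of 0.45 (SE 0.11; limma adjusted p = 0.00307) was 0.12 and not called with medians subtracted (limma adjusted p = 0.247).

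Upstream sequences were searched on both strands for the E2F words TTTCCCGC, TTTCGCGC, TTTGCCGC and TTTGGCGC, since E2F factors are known to act on many genes of replication. Of the 34 repair genes with a RefSeq sequence, 3 (8.82%) held one in the 250 bases before the start of a sequence entry. Among the 10044 tested genes 3.81% did, and 4 of 15 proliferation genes did. The start of an entry can lie inside the gene's RefSeq position. The repair genes with a match were Msh3, Brca2 and Chek2. The sequences of Brca2 (chr5:150522371-150522620) and Chek2 (chr5:110839778-110839978) are shown for that match, in capitals, which in both is TTTCCCGC on the other strand. Both sequences are on the plus strand (RefSeq, GRCm38.p6). RefSeq's positions for the whole genes begin before these matches, at 150522297 for Brca2 and 110839800 for Chek2. Both matches thus lie inside the annotated genes. The word CCAAT occurred in 18 of the 34 (52.9%), against 40.3% of tested genes, and the words TTTGAA or TTCGAA in 3 (8.82%), against 14.8%.
Brca2: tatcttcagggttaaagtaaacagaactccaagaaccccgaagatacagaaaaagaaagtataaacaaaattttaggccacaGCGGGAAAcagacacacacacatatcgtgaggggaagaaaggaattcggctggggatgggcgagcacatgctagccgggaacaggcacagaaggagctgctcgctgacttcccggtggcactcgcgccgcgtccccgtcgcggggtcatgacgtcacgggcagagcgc
Chek2: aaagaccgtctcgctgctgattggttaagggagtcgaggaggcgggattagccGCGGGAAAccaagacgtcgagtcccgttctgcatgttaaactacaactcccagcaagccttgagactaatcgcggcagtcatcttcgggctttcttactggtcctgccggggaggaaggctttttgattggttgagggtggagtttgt

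Partners and paralogues were then compared inside each library, where subtracting the library median changes nothing. A common scaling of FPKM need not cancel for genes near 1 FPKM, because of the added pseudocount. For 10 pairs, the difference between both genes on the log2(FPKM + 1) scale was compared between groups. The test was a two-sided exact permutation test, adjusted over the 10 pairs. The pairs were chosen with earlier results of these data known, and the p-values do not allow for that choice. At 5 against 5 the smallest possible p is 0.00794. Of the pairs, 5 passed. Parp1 exceeded Parp2 by 0.80 to 1.09 in tumours, but by only -0.21 to 0.42 in adjacent samples. The ranges did not overlap, and the shift was 0.82 (exact permutation p = 0.00794, adjusted 0.0265).

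Mgmt minus Mpg, which sets direct reversal beside excision of methylated purines, was -1.54 to -1.18 in adjacent samples and -2.60 to -1.65 in tumours. The shift of -0.72 (exact permutation p = 0.00794, adjusted 0.0265) was without overlap, with tumours 4 and 5 nearest to adjacent tissue. Mpg shares 42.5% of its exon bases with Nprl3, which rose by 0.78. The part of Nprl3 reads in the shift of Mgmt minus Mpg was not tested. Atr minus Atm shifted by 0.31, again without overlap (exact permutation p = 0.00794, adjusted 0.0265). Msh6 minus Msh3 shifted by 0.55 (exact permutation p = 0.0159, adjusted 0.0397) and Neil3 minus Neil1 by 0.50 (exact permutation p = 0.0238, adjusted 0.0476), both with overlap. Neil3 minus Neil1 missed the threshold after quantile normalization (adjusted exact permutation p = 0.0952) and with a pseudocount of 5 (0.0926). Parp1 minus Parp2 and Atr minus Atm also passed in each of the 10 tests that left out 1 library. Without adjacent sample 1, 2, 3 or 4 only those 2 pairs passed, with Mgmt minus Mpg at an adjusted exact permutation p of 0.0529 to 0.0595. Without tumour 3 or 5, Msh6 minus Msh3 (0.0595) and Neil3 minus Neil1 (0.0635) missed the threshold on the same adjusted exact permutation p. With 4 against 5 samples the smallest p is 0.0159.

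The other pairs did not pass. Alkbh2 minus Alkbh3 shifted by 0.34 (exact permutation p = 0.0317, adjusted 0.0529), and it passed, as did Fancd2 minus Fanci, without adjacent sample 5 (both with an adjusted exact permutation p of 0.0159). With a pseudocount of 0.1, Alkbh2 minus Alkbh3 (adjusted exact permutation p = 0.0397) and Pms1 minus Pms2 (0.0454) passed. The shift was 0.19 for Fancd2 minus Fanci, 0.18 for Pms1 minus Pms2 and 0.15 for Chek1 minus Chek2, with adjusted exact permutation p-values of 0.159, 0.248 and 0.379. Brca2 minus Palb2 shifted by 0.01 (exact permutation p = 0.937). It ran from -0.08 to 0.05 when single libraries were left out.

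**Figure D4:**
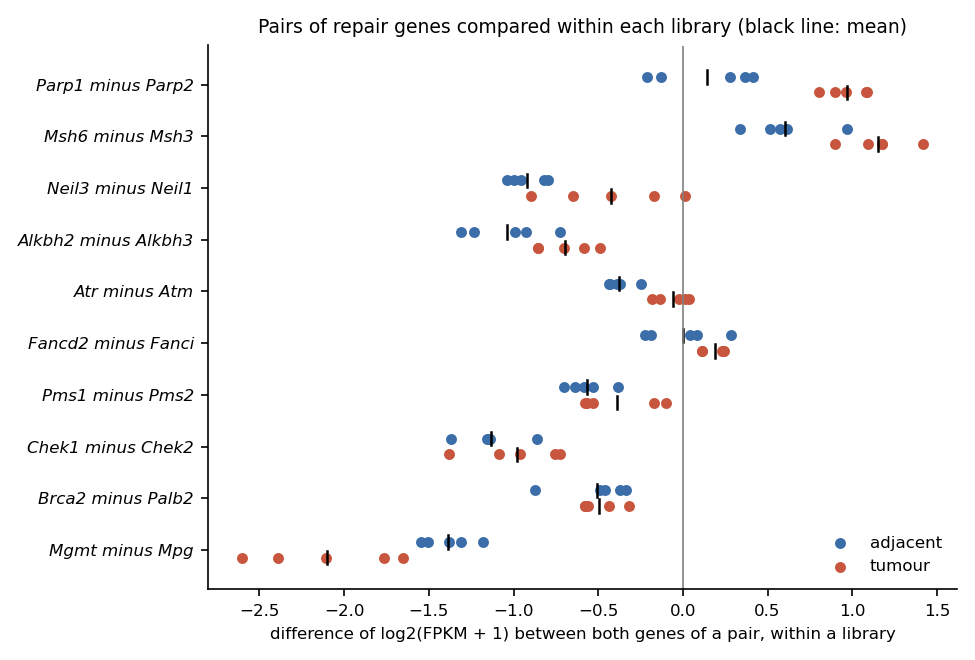
Difference between both genes of each pair within a library, on the log2(FPKM + 1) scale (x axis), with 5 adjacent and 5 tumour points per pair and a black line at each mean. The colours do not overlap for Parp1 minus Parp2, Mgmt minus Mpg and Atr minus Atm; the means of Brca2 minus Palb2 differ by 0.01.

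Marker genes of proliferation and of several cell types also differed between the groups. All 18 proliferation markers rose, by a median of 1.36 on the log2 scale, and their summed level was 274 to 371 FPKM in adjacent samples and 565 to 921 in tumours. Among them Top2a rose by 1.66, Mcm3 by 1.58, Pcna by 1.08 and Mki67 by 0.96. All 10 absorptive colonocyte markers fell (summed 3629 to 5722 FPKM, then 313 to 1418), as did all 7 goblet cell markers (12893 to 16802, then 702 to 3005). All 7 tested fibroblast markers rose (79.7 to 198, then 593 to 989), as did all 6 macrophage markers (91.9 to 281.5, then 576 to 998) and all 6 neutrophil markers (12.3 to 153, then 144 to 481). All 6 endothelial markers rose (13.3 to 28.8, then 53.8 to 82.6) and 3 of 6 smooth muscle markers did (39.6 to 119, then 124 to 209.7). Of the 6 general epithelial markers 5 fell and 1 rose (6846 to 8403, then 3871 to 5977). T cell markers rose in 2 of 6 cases (8.03 to 16.2, then 15.4 to 40.5), and 2 of 4 tested B cell markers fell (114 to 387, then 28.7 to 463). Of all these markers Pax5 alone was at 0 in some library. The part of these cell types in the repair values was not tested, and in bulk tissue fewer cells of a type and less RNA per cell cannot be told apart.

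Each route was also set against the summed proliferation markers, which rose by a median of 1.36, against 0.35 over all genes tested. A set of genes that rises less than the markers falls on this measure, and other genes were not put on it. Recombination and Fanconi anaemia genes summed to 6.98% to 7.22% of the marker sum in adjacent samples and 6.51% to 7.04% in tumours, ranges that overlap. The base excision completion enzymes also overlapped, at 24.8% to 29.5% and 20.5% to 26.6%. Direct reversal was at 3.76% to 4.96% and then 1.74% to 2.87%, with every tumour lower. Every tumour was likewise lower for the glycosylases (7.81% to 9.69%, then 5.18% to 6.41%) and for mismatch repair (5.53% to 6.65%, then 4.28% to 4.88%). The same held for nucleotide excision (7.39% to 8.96%, then 4.99% to 6.25%) and the kinases (3.97% to 4.46%, then 3.03% to 3.41%). The sums weigh genes by their level, with Alkbh3 highest in direct reversal and Apex1 highest in base excision completion. These percentages are a description and carry no test.

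**Figure D5:**
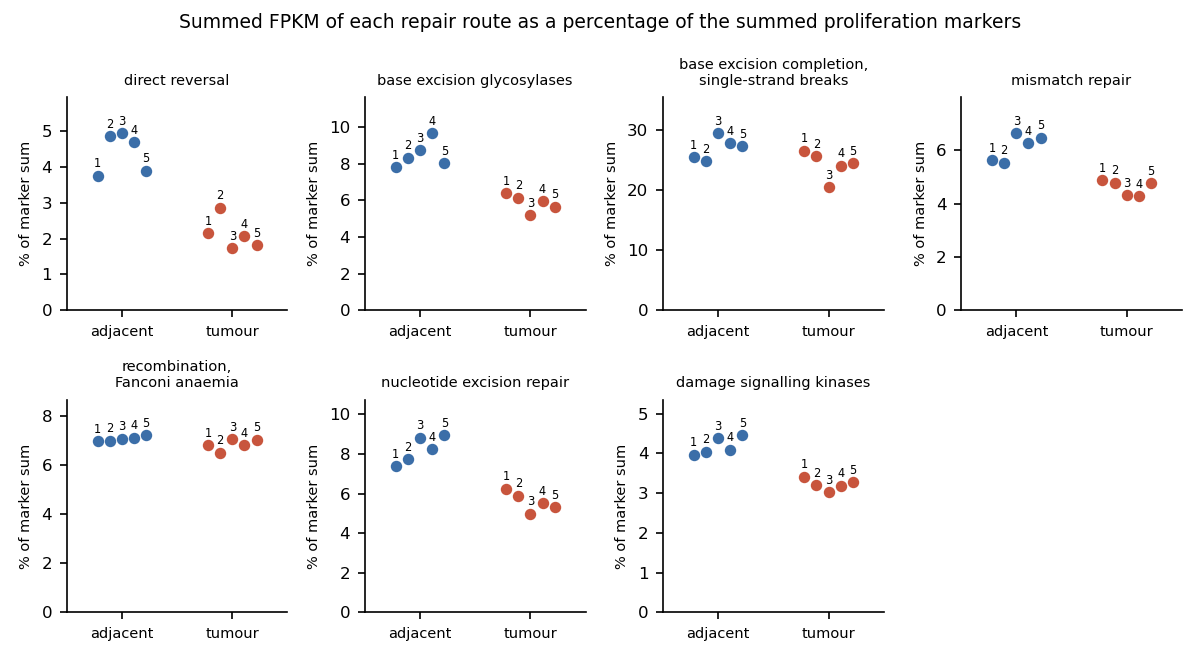
Summed FPKM of each repair route as a percentage of the summed FPKM of 18 proliferation markers (y axis, from 0) in each library, numbered by sample. The groups overlap for recombination genes (6.98% to 7.22% and 6.51% to 7.04%), while direct reversal is at least 3.76% in adjacent samples and at most 2.87% in tumours.

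The other genes of the same pathways were mostly higher too. Of 87 listed, 85 were tested, 72 rose (57.2% of all genes did) and none fell by limma (19.3% of all genes did), with none lower at an unadjusted p under 0.05 or in the fit without a trend. Their median log2 change was 0.56, and with medians subtracted 42 were higher and 8 lower, against 34.5% and 33.3% of all genes. After quantile normalization 34 were higher and 10 lower, against 36.6% and 30.2%. In base excision 11 of 13 rose, led by the ligase gene Lig1 (1.2) and the flap nuclease gene Fen1 (1.18), and 7 with medians subtracted. In recombination and crosslink repair 20 of 24 rose, led by Ube2t, which ubiquitinates the clamp (1.36), and the nuclease subunit gene Eme1 (1.08), and 12 with medians subtracted. In nucleotide excision 15 of 18 rose, led by Gtf2h5 (0.87) and Cetn2 (0.84), but with medians subtracted 5 were higher and 2 lower.

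End joining rose in 8 of 10 genes, led by Xrcc6, which encodes a Ku subunit (0.80), and Polq (0.79). With medians subtracted 4 were higher and 1 lower, against 34.5% and 33.3% of all genes. After quantile normalization 3 were higher and 2 lower, against 36.6% and 30.2%. On both scales the end joining genes called higher were thus near the share over all genes. Translesion synthesis rose in 6 of 7, led by Mad2l2 (1.40) and Rad18 (0.98), which ubiquitinates PCNA, and in 5 with medians subtracted. Damage signalling rose in 12 of 13, led by the Atr pathway mediators Clspn (1.37) and Topbp1 (1.18), and in 9 with medians subtracted.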

How the data were processed

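Polyadenylated RNA of 10 samples was sequenced (TruSeq RNA v2 kit, per the labels' protocols). The authors deposited FPKM per gene, without replicates pooled. Per the submitters' processing notes, the mm10 build was used with Salmon 0.8.2, RSEM 1.2.15, Cufflinks 2.2.1, TopHat2 2.1.0, GATK, DESeq2 1.14.1 and edgeR 3.16.5; the notes do not say which made the table. Because FPKM is relative to a library's total, any gene's value depends on the others. One line of text was left out, and 4792 genes were at 0 in every library.

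Groups follow the sample type label. The 13016 genes that averaged 1 FPKM or more across libraries were fitted on log2(FPKM + 1) with limma 3.58.1 (R 4.3.3; group as the only term, trend, robust), two-sided. P-values were adjusted by Benjamini and Hochberg and called below 0.05. The pseudocount of 1 understates changes of low genes. The fit was tested on simulated data. Pairs were tested by exact permutation in Python 3.11.15. Alternatives were other pseudocounts, no filter, subtracted medians, quantile normalization, no trend, the replicate block and leaving out libraries. Depth was inferred from the spacing of low values, of which 71.6% to 77.3% lay within 0.2 of a whole fragment, against a median of at most 36.7% at other depths. Intervals were not computed. Exon overlap is from the GENCODE annotation of GRCm38.

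All repair genes are accounted for. Values in every library are given for direct reversal, for genes of the pairs past the threshold, and per route for the genes with the largest and smallest change; of other repair genes, per list the largest changes past the threshold, up to 2 in each direction. The members, lists and pairs were chosen with earlier results of these data known. The protein data were not used here.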

Additional observations from a re-analysis of the deposited data

Results flagged for a closer look

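Among 100 groups of 5 values, from the 40 repair genes and the 10 pairs in each tissue, 5 had a sample far from the other 4. By chance about 1 in 20 groups is marked this way, which is the number seen. Alkbh2 was lowest in adjacent sample 1, at 2.95 FPKM (others 3.52 to 3.75), and highest in tumour 1, at 5.94 FPKM (others 4.81 to 5.12). Parp2 was lowest in adjacent sample 5, at 11.58 FPKM (others 12.95 to 13.38), and in tumour 2, at 16.38 FPKM (others 20.59 to 21.59). The within-library difference Brca2 minus Palb2 was lowest in adjacent sample 1, at -0.87 (others -0.49 to -0.34).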

How the results depend on the processing

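The count of 36 repair genes higher in tumours came to 23 after quantile normalization. The count of 0 lower became 2 with medians subtracted, 3 after quantile normalization, 3 with the replicate block and medians subtracted, 2 without tumours 2 and 4 and 3 without adjacent sample 5 (both with medians subtracted), and ranged from 0 to 1 when single libraries were left out (Mgmt, without tumour 5). Both settings that leave out libraries and subtract medians were chosen after seeing the data. In the order medians, quantile, block, without tumours 2 and 4, without adjacent sample 5, all genes called higher in tumours numbered 4486, 4759, 4382, 4784 and 4356, and all genes called lower in tumours 4329, 3934, 4265, 4286 and 4274. Signs reversed for Alkbh2 (-0.038) and Atm (-0.023) after quantile normalization. Under those 5 settings in order, Alkbh3 was -0.21, -0.26, -0.21, -0.25 and -0.28, and Xrcc3 -0.28, -0.37, -0.28, -0.23 and -0.29. The Msh3 log2 change was -0.016, -0.14, -0.016 and, without adjacent sample 5, -0.056. All 36 calls held in each of the 10 fits that left out 1 library.

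Of the pairs, 5 passed; leaving out single libraries gave 2 to 7, and the sign-flip test with the replicate block gave 0, since its smallest p over 5 numbers is 0.0625. Brca2 minus Palb2 was -0.051 and Chek1 minus Chek2 -0.076 with a pseudocount of 5. Leaving out single libraries put Brca2 minus Palb2 between -0.080 and 0.054. The cause of these changes was not tested. Like-numbered samples correlated at 0.0223 to 0.422, over 0.1 in 3 of 5, which does not settle whether they share an animal. The numbers were not taken as pairs in the main fit because the labels name a single mouse for all libraries. The replicate block left the counts at 36 and 0 (all genes 7534 and 2533) and changed no call of a repair gene as deposited. With medians subtracted, the replicate block took the higher count from 30 to 28 and put the Alkbh3 log2 change past the threshold as lower (limma adjusted p = 0.0232). Depth limits the genes near or below 1 FPKM, such as Neil2.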

Other observations

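A few other repair genes, named here after their values were seen, did not pass the test as deposited and were lower with medians subtracted. Rad51d, a recombination mediator of the same family as Xrcc3, was at 6.19 ± 0.325 FPKM in adjacent samples and 5.76 ± 0.397 in tumours (SD, n = 5), a change of -0.09 (limma adjusted p = 0.27), or -0.42 with medians subtracted (limma adjusted p = 0.000464). The others of the 8 were Aplf (-0.33 with medians subtracted), Gtf2h1 (-0.34), Uvssa (-0.36), Polm (-0.31), Polk (-0.28), Nbn (-0.21) and Cdc25a (-0.17).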
